A study of Canis lupus with 20 samples.

Results

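VWF, PECAM1 and CDH5 are classical markers of the endothelium, the cell layer that lines blood vessels and the heart's inner surface, and KDR, TEK and NRP2 are receptors through which endothelial cells respond to vascular growth factors. These 6 genes were followed across the left atrium and left ventricle of dogs after removal of a kidney or a sham operation. They were chosen by name: every probe set whose only gene symbol in the array's annotation table is among the 6 was taken, which gave 14 probe sets for 6 of the 15115 genes that have a probe set with 1 symbol. Of the 14 probe sets 11 passed the filter on dim signals and were tested, 4 for PECAM1, 2 each for CDH5 and NRP2, and 1 each for VWF, KDR and TEK. The 3 that were not tested were 2 for CDH5, with means of 1.25 and 1.17 on the log2 scale, and 1 for NRP2, with a mean of 1.64.

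The study used dogs described as normal, which lost the right kidney (uninephrectomy) or were sham operated, and whose hearts were collected 12 weeks after surgery. Each operation had 6 dogs, and 5 atrial and 5 ventricular samples of each operation were hybridised, 1 array per sample, so that 20 Affymetrix canine arrays fell into 4 groups of 5, the atrium and the ventricle of each operation. All groups shared an operation and the 12-week interval, and there was no unoperated group. The labels do not say which atrial and ventricular samples came from the same dog, and p-values measure the spread between these samples.

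Von Willebrand factor, the product of VWF, is a large glycoprotein that endothelial cells store in Weibel-Palade bodies and that tethers platelets to injured vessel walls; megakaryocytes make it too. PECAM1 and CDH5 (VE-cadherin) hold neighbouring endothelial cells together, PECAM1 as an adhesion molecule that platelets and leukocytes also carry, and CDH5 as the cadherin of the endothelial adherens junction. KDR is the main signalling receptor for VEGFA in blood vessel endothelium, TEK is the receptor for angiopoietins, which regulates vessel quiescence, and NRP2 is a coreceptor for VEGFC and for secreted semaphorins, known from veins and lymphatic vessels. In the heart, capillary endothelium lies between the muscle fibres and depends on VEGF made in part by the cardiomyocytes.

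All values are log2 signals as deposited, and each gene is represented by its probe set with the highest mean over the 20 arrays unless another is named. The arrays had medians between 2.33 and 2.39. VWF lay between 10.03 and 10.96 on the 20 arrays, PECAM1 between 9.93 and 10.50, and KDR between 6.16 and 8.16. These 3 genes were clear of the array medians on every array. CDH5, the most endothelium-restricted of the markers, was dim, between 2.83 and 3.43, as were TEK, between 3.00 and 3.77, and NRP2, between 2.51 and 4.02. Signals of different probe sets are not on a common scale of abundance, so levels were not compared between genes, and log2 differences are compressed near the low end of the signal range. In none of the 24 groups of 5 values (6 genes in 4 groups) did an array stand apart by Dixon's test, whose critical value for 5 values is 0.71.

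**Figure D1:**
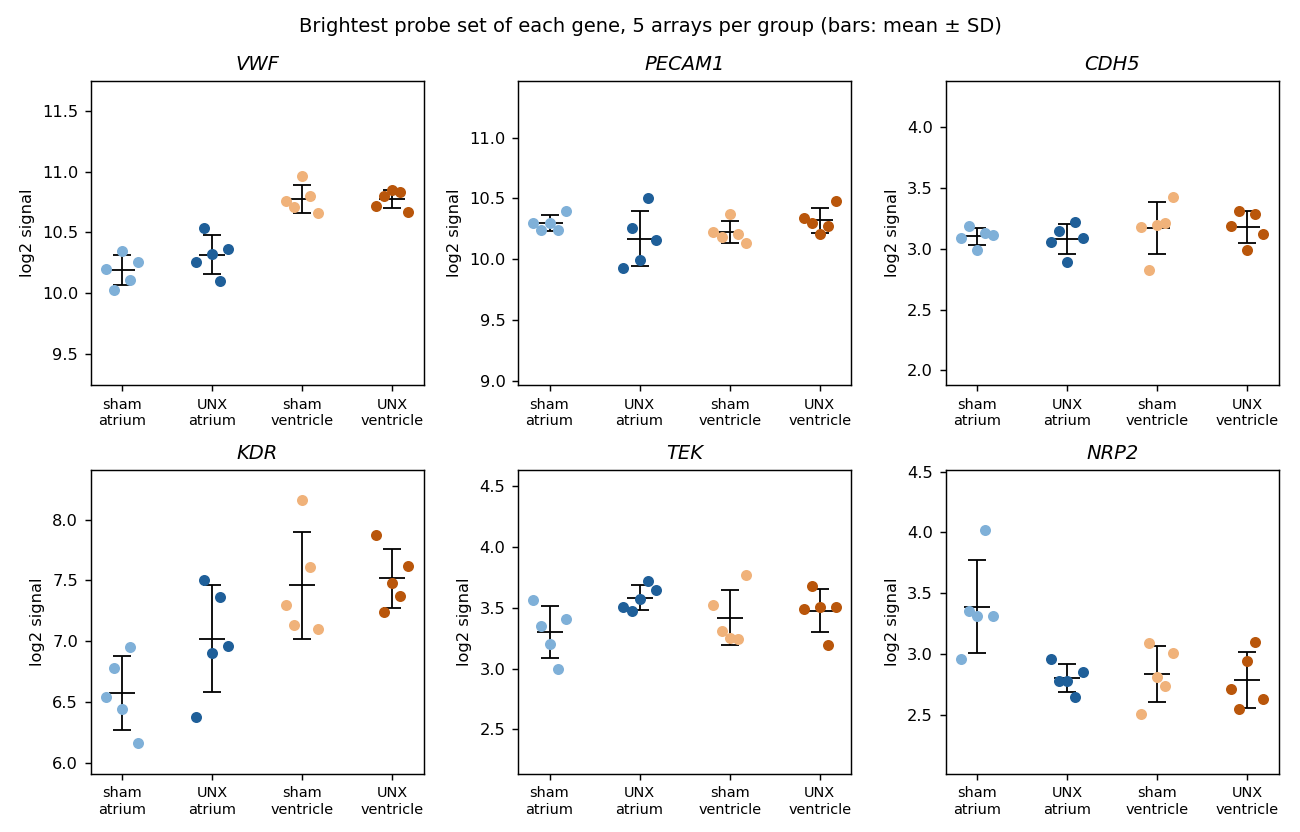
Log2 signal (vertical axis) of the brightest probe set of each of the 6 genes on each array, by group (horizontal axis; UNX, uninephrectomized); points are arrays, and bars show the mean ± SD of 5 arrays. The panels have their own position but the same span of the vertical axis. VWF lay higher on every ventricular than on every atrial array of the same operation, KDR did so in sham dogs, and NRP2 was highest in sham atria.

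RNA quality was followed as the 3′ gap, the mean log2 excess of the 3′ control probe sets of EEF1A, ACTB and GAPDH over those nearer the 5′ end, which is larger in degraded RNA. Its mean was 1.19 ± 0.19 (SD, n = 5) in sham atria, 1.10 ± 0.26 in uninephrectomized atria, 1.42 ± 0.27 in sham ventricles and 1.14 ± 0.15 in uninephrectomized ventricles. Between sham atria and ventricles the gap differed by -0.23 (exact two-sided permutation p = 0.159), and between uninephrectomized and sham ventricles by -0.28 (exact p = 0.0635).

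The comparison of the chambers within the sham dogs showed less VWF and KDR signal in the atrium than in the ventricle, and more NRP2, while PECAM1, CDH5 and TEK did not pass the test. By limma with Benjamini-Hochberg adjustment over all 30047 tested probe sets, called at an adjusted p under 0.05, 3 of the 6 genes were called, 1 higher and 2 lower in the atrium. Of all tested probe sets 20.8% were called in this comparison, 11.2% higher and 9.62% lower, so that the chambers differed widely beyond these genes. With arrays shifted to the same median, the split of all calls moved from 3367 higher and 2890 lower to 2450 higher and 4447 lower, and the 3 calls kept their direction. The median difference was -0.09 over the 6 genes and -0.01 over all tested probe sets. In bulk tissue, fewer endothelial cells and less RNA per cell cannot be told apart.

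In sham atria VWF measured 10.20, 10.03, 10.35, 10.11 and 10.26 on arrays 1 to 5, and in sham ventricles 10.76, 10.71, 10.96, 10.80 and 10.66. Every atrial array lay below every ventricular array. The difference, atrium minus ventricle, was -0.59 ± 0.08 (SE; 95% confidence interval -0.76 to -0.42; adjusted p = 3.49e-05), a 1.5-fold higher ventricular level. The exact permutation p was 0.00794, the smallest that 5 against 5 arrays allow when taken as unpaired. The exact tests between sham chambers do not use the pairing of sham arrays described with the processing. In uninephrectomized atria VWF measured 10.26, 10.54, 10.32, 10.10 and 10.36, against 10.72, 10.80, 10.85, 10.83 and 10.67 in the ventricles. The groups again did not overlap, and the difference was -0.46 ± 0.08 (-0.62 to -0.29; adjusted p = 0.000336). VWF was thus highest in sham and uninephrectomized ventricles, at 10.78 ± 0.11 (SD) and 10.77 ± 0.08, which did not differ beyond their spread, followed by uninephrectomized atria at 10.32 ± 0.16 and sham atria at 10.19 ± 0.13, which did not either. Of the 6 genes, it was the only one called between the chambers under both operations.

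KDR measured 6.54, 6.78, 6.44, 6.95 and 6.16 in sham atria and 7.30, 7.13, 8.16, 7.61 and 7.10 in sham ventricles. Here too all atrial arrays lay below all ventricular arrays. The difference of -0.89 ± 0.22 (-1.35 to -0.43; adjusted p = 0.00682; exact permutation p = 0.00794) is a 1.85-fold higher ventricular level. With the 3′ gap as a covariate it was -0.71 ± 0.22 (adjusted p = 0.0245). Uninephrectomized atria gave 6.38, 7.50, 6.90, 7.36 and 6.96, and the ventricles 7.87, 7.24, 7.48, 7.37 and 7.62. The groups overlapped, since atrial array 2 exceeded 3 ventricular arrays, and atrial array 1 lay below all others. The difference of -0.50 ± 0.22 (-0.96 to -0.04) did not pass the test (adjusted p = 0.0988; exact p = 0.0635), and it passed when limma weighted the arrays (-0.59, adjusted p = 0.0336). In order of level, uninephrectomized ventricles (7.52 ± 0.24, SD) and sham ventricles (7.46 ± 0.44) did not differ beyond their spread, and uninephrectomized atria (7.02 ± 0.44) and sham atria (6.57 ± 0.31) followed.

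NRP2 ran the other way in sham dogs. Its atrial values were 2.96, 3.35, 3.31, 4.02 and 3.31, and its ventricular values 2.51, 3.09, 2.81, 2.74 and 3.01. The groups overlapped, since atrial array 1 lay below ventricular arrays 2 and 5, and atrial array 4 was the highest of all 20 arrays. The difference was 0.56 ± 0.16 (0.23 to 0.88; adjusted p = 0.015; exact permutation p = 0.0238). The call did not extend to the second brightest NRP2 probe set, which is dimmer still at a mean of 2.02 and differed by -0.05 ± 0.06 (adjusted p = 0.595). It was also lost with the mean of both probe sets (0.25, adjusted p = 0.0528) and with a fit of the 10 arrays compared (0.56, adjusted p = 0.0609). In uninephrectomized dogs the atrial values were 2.96, 2.78, 2.78, 2.65 and 2.85 and the ventricular values 2.71, 2.55, 2.94, 3.10 and 2.63, with overlapping groups and a difference of 0.02 ± 0.16 (adjusted p = 0.944). Signals under log2 3 were found on 1 of 5 sham atrial arrays, on 5 of 5 uninephrectomized atrial arrays, and on 3 and 4 of 5 sham and uninephrectomized ventricular arrays. The 3 lower groups, at 2.83 ± 0.23 (SD; sham ventricle), 2.80 ± 0.12 (uninephrectomized atrium) and 2.79 ± 0.23 (uninephrectomized ventricle), did not differ beyond their spread, and sham atria stood at 3.39 ± 0.39.

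PECAM1, the other bright marker, did not share the direction of VWF in sham dogs. Sham atria measured 10.30, 10.24, 10.30, 10.24 and 10.40, and sham ventricles 10.22, 10.18, 10.37, 10.21 and 10.13. The groups overlapped, with a difference of 0.07 ± 0.09 (-0.11 to 0.26; adjusted p = 0.623) that was 0.00 with arrays shifted to the same median. Uninephrectomized atria were the most spread, at 9.93, 10.26, 9.99, 10.50 and 10.16, against 10.34, 10.30, 10.21, 10.27 and 10.48 in the ventricles. The difference there was -0.15 ± 0.09 (-0.34 to 0.03; adjusted p = 0.219). It was called only when uninephrectomized atrial array 4, the highest, was left out (-0.23, adjusted p = 0.0305). The 3 dimmer PECAM1 probe sets differed by 0.32, 0.20 and 0.22 in sham and by -0.19, -0.23 and -0.21 in uninephrectomized dogs, and none was called. All 4 group means of the brightest probe set, from 10.17 ± 0.23 (SD; uninephrectomized atrium) over 10.22 ± 0.09 (sham ventricle) and 10.30 ± 0.06 (sham atrium) to 10.32 ± 0.10 (uninephrectomized ventricle), lay within the spread of their neighbours.

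CDH5 and TEK showed no called chamber difference, at signals where small changes are hard to see. CDH5 ranged from 2.99 to 3.19 with a median of 3.11 in sham atria and from 2.83 to 3.43 with a median of 3.20 in sham ventricles. Its differences were -0.07 ± 0.09 in sham and -0.10 ± 0.09 in uninephrectomized dogs (adjusted p = 0.673 and 0.475), and its 4 group means, 3.10 ± 0.08 and 3.17 ± 0.21 (SD; atrium and ventricle of sham dogs) and 3.08 ± 0.12 and 3.18 ± 0.13 (of uninephrectomized dogs), lay within the spread. The second CDH5 probe set differed by 0.06 and -0.04. TEK measured 3.56, 3.35, 3.20, 3.00 and 3.41 in sham atria and 3.52, 3.31, 3.25, 3.24 and 3.77 in sham ventricles, overlapping throughout (-0.11 ± 0.12, adjusted p = 0.54). The chamber difference of TEK in uninephrectomized dogs was 0.11 ± 0.12 (adjusted p = 0.53), with intervals in both comparisons inside -0.36 to 0.35.

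In uninephrectomized dogs 1 of the 6 genes, VWF, was called between the chambers, lower in the atrium, against a background of 27.3% of all tested probe sets, 14.7% higher and 12.5% lower. With arrays shifted to the same median all calls split into 3426 higher and 5994 lower instead of 4429 and 3761. Groups that did not overlap were found for 2 of 6 genes in sham dogs, where 14.3% of all tested probe sets had such groups (6.67% with all atrial arrays lower), and for 1 of 6 in uninephrectomized dogs, where 21% did (9.57% with all atrial arrays lower). The median over the 6 genes was -0.12, beside -0.02 over all tested probe sets. That KDR and NRP2 were called in sham dogs alone is not a shown difference between the operations: the chamber differences themselves differed by 0.39 ± 0.31 for KDR (unadjusted p = 0.229) and by -0.54 ± 0.22 for NRP2 (unadjusted p = 0.0248), both at an adjusted p of 1.

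**Figure D2:**
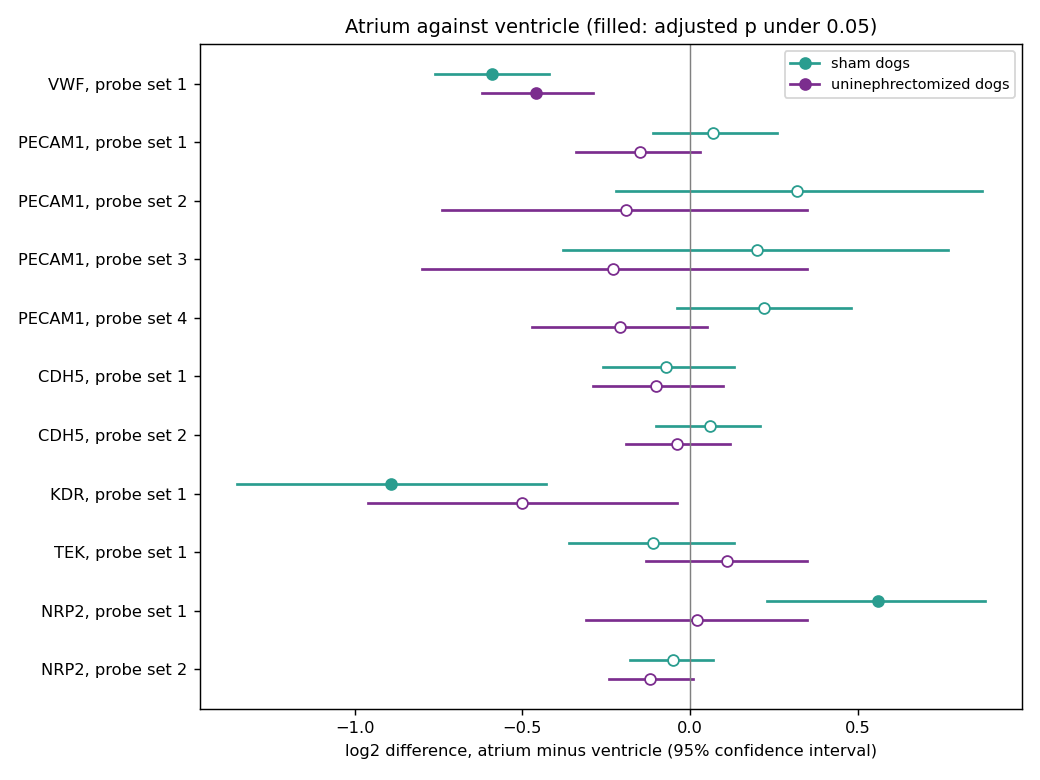
Log2 difference, atrium minus ventricle (horizontal axis), with its 95% confidence interval for the 11 tested probe sets (vertical axis, numbered from the brightest) in sham and uninephrectomized dogs; filled points have an adjusted p under 0.05. VWF lay below 0 under both operations, KDR and NRP2 were called in sham dogs at -0.89 and 0.56, and the second NRP2 probe set lay at -0.05 and -0.12.

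Markers of other cell types also differed between the chambers in the bulk tissue. Whether the amounts of those cells differed was not tested. Of all genes 12% were called higher and 10.8% lower in sham atria, and 16.2% higher and 13.7% lower in uninephrectomized atria. Of 10 tested fibroblast markers 7 were called higher in sham and 9 in uninephrectomized atria, with median differences of 1.07 and 1.32, and none lower. The mean fibroblast level per array ran from 9.52 to 10.58 in sham atria, from 10.18 to 10.82 in uninephrectomized atria, from 8.75 to 9.26 in sham ventricles and from 8.65 to 9.31 in uninephrectomized ventricles. Of 10 cardiomyocyte markers 6 were called lower in the atrium under either operation, among them MYH7, the slow myosin heavy chain (-0.68 ± 0.10 and -0.80 ± 0.10), and their mean level ran from 13.29 to 13.34 in sham atria, from 13.21 to 13.36 in uninephrectomized atria, from 13.48 to 13.69 in sham ventricles and from 13.53 to 13.74 in uninephrectomized ventricles. The mean level of 26 pan-endothelial genes overlapped between the chambers, from 5.39 to 5.61 in sham atria, from 5.30 to 5.55 in uninephrectomized atria, from 5.44 to 5.60 in sham ventricles and from 5.43 to 5.67 in uninephrectomized ventricles. Of 10 pericyte and smooth muscle markers 3 were called higher in sham atria, and 4 higher and 3 lower in uninephrectomized atria; of 10 macrophage markers 0 and 1 were called. The part of these cell types in the differences of VWF, KDR and NRP2 was not tested. With the 3′ gap as a covariate VWF differed by -0.61 and NRP2 by 0.53 in sham dogs, and both stayed called. Platelets are a second source of VWF and PECAM1. Their list (GP9, PPBP and SELP tested) had 0 genes called in sham dogs and 1 in uninephrectomized dogs, the dim GP9 at -0.26 ± 0.08, and its mean level ran from 4.16 to 6.61 in sham atria, from 4.19 to 6.25 in uninephrectomized atria, from 4.26 to 5.10 in sham ventricles and from 4.26 to 4.54 in uninephrectomized ventricles.

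To see whether the endothelial genes kept the same proportion to each other, each gene was also taken relative to PECAM1 on the same array, a comparison chosen after the values were seen. Relative to PECAM1, VWF differed between sham atria and ventricles by -0.66 (-0.77 to -0.55) and KDR by -0.96 (-1.49 to -0.43). Both had groups that did not overlap and an exact permutation p of 0.00794, the smallest possible with arrays taken as unpaired. Over the 20 such comparisons this p adjusts to 0.0794. With only VWF and KDR in sham dogs at the smallest possible p, no comparison could reach an adjusted p under 0.05. The adjusted p therefore cannot decide about these differences, and no conclusion is drawn from it. In uninephrectomized dogs the values were -0.30 for VWF and -0.35 for KDR (exact p = 0.0635 for each). NRP2 differed by 0.49 relative to PECAM1 in sham dogs (exact p = 0.0476, adjusted p = 0.159). A ratio of this kind shows unequal change and does not say which gene changed.

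The pan-endothelial genes were called in both directions. The list of 26 tested genes, 5 of them among the 6 genes described here, had 1 called higher and 3 lower in sham atria (3.85% and 11.5%), where 12% and 10.8% of all genes were called, and 2 higher and 2 lower in uninephrectomized atria (7.69% each, beside 16.2% and 13.7%). VWF and KDR were among the 3 lower in sham atria. Without the 5 genes, 1 of 21 was called higher and 1 lower in sham atria, and 2 higher and 1 lower in uninephrectomized atria. MCAM, an adhesion molecule also made by smooth muscle and pericytes, was higher in the atrium by 1.03 ± 0.17 in sham (adjusted p = 0.000287) and 1.08 ± 0.17 in uninephrectomized dogs. EMCN, a sialomucin of capillary and venous endothelium, was lower in sham atria at -0.49 ± 0.14 (adjusted p = 0.0186). CLDN5, the claudin of endothelial tight junctions, was lower in uninephrectomized atria at -0.93 ± 0.34 (adjusted p = 0.0476), and CD34, carried by endothelium and by stromal progenitors, was higher at 0.43 ± 0.11 (adjusted p = 0.00532). The median over the list was -0.03 in sham and -0.19 in uninephrectomized dogs.

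**Figure D3:**
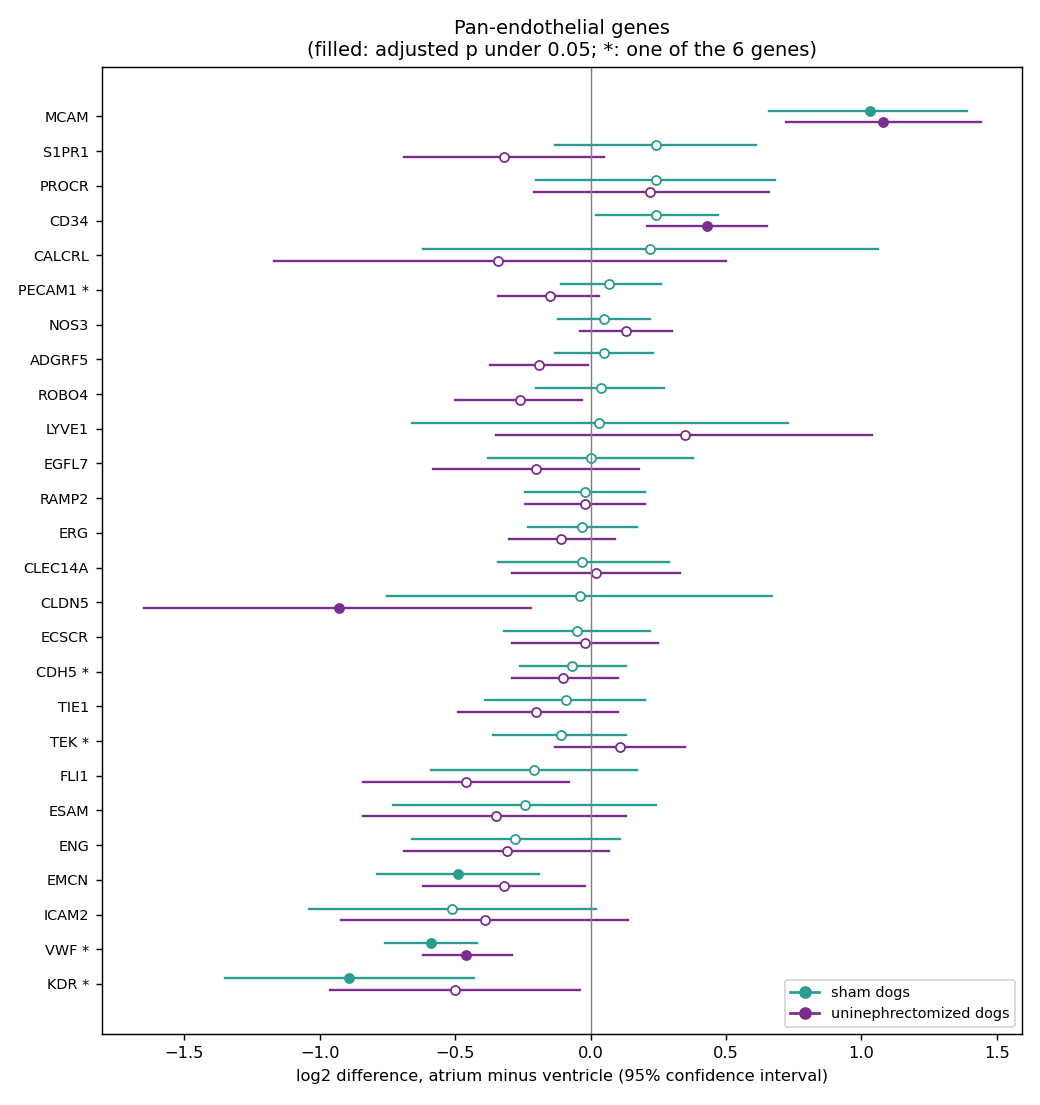
Log2 difference, atrium minus ventricle (horizontal axis), with its 95% confidence interval for 26 pan-endothelial genes (vertical axis, ordered by the sham difference; asterisks mark VWF, PECAM1, CDH5, KDR and TEK) in sham and uninephrectomized dogs; filled points have an adjusted p under 0.05. KDR and VWF lie at the lower end at -0.89 and -0.59 in sham dogs, MCAM lies at the upper end at 1.03, and most points are open.

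The VEGF family, to which the ligands of KDR and NRP2 belong, had all 10 listed genes tested, and 4 were called under each operation. Of all genes 22.8% were called in sham and 29.9% in uninephrectomized dogs. KDR and NRP2 were among the 4 in sham dogs. Without them, 1 of 8 genes was called higher and 1 lower in sham atria, and 1 higher and 3 lower in uninephrectomized atria. VEGFB, a ligand of FLT1 and not of KDR, was lower in the atrium at -0.45 ± 0.07 in sham (adjusted p = 0.000279) and -0.43 ± 0.07 in uninephrectomized dogs (adjusted p = 0.000304). VEGFA, the main KDR ligand, differed by -0.10 and -0.15 and was not called. VEGFC and VEGFD, which bind FLT4 and NRP2, were lower in uninephrectomized atria at -0.82 ± 0.21 (adjusted p = 0.00616) and -1.35 ± 0.32 (adjusted p = 0.00377); VEGFD is dim in the atrium, with means of 2.36 (sham) and 2.19 (uninephrectomized). Their sham differences of -0.40 and -0.87 did not pass (adjusted p = 0.191 and 0.0615). Of the receptors, NRP1, the coreceptor that pairs with KDR, was higher in the atrium at 0.78 ± 0.23 (adjusted p = 0.0185) and 1.14 ± 0.23 (adjusted p = 0.000876), opposite in direction to KDR. FLT1 differed by -0.52 ± 0.24 and -0.50 ± 0.24 and FLT4 by -0.23 and -0.19, and neither was called. The median of the 10 genes was -0.31 under both operations.

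Around TEK, 5 of the 6 listed genes of the angiopoietin system were tested. ANGPT1, the activating ligand, was higher in sham atria at 0.59 ± 0.18 (adjusted p = 0.0263), and PTPRB, an endothelial phosphatase that restrains TEK signalling, was lower at -0.35 ± 0.11 (adjusted p = 0.025) in sham and -0.38 ± 0.11 (adjusted p = 0.0123) in uninephrectomized atria. Both are dim, with every group mean under log2 3. ANGPT2, TIE1 and TEK itself were not called. For NRP2, 8 of 13 semaphorin, plexin and neuropilin genes with a probe set were tested, of which NRP1 and NRP2 were called higher in sham atria and NRP1 in uninephrectomized atria. SEMA3C and SEMA3F, secreted semaphorins that bind NRP2, differed by -0.30 and -0.04 in sham dogs and were not called.

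**Figure D4:**
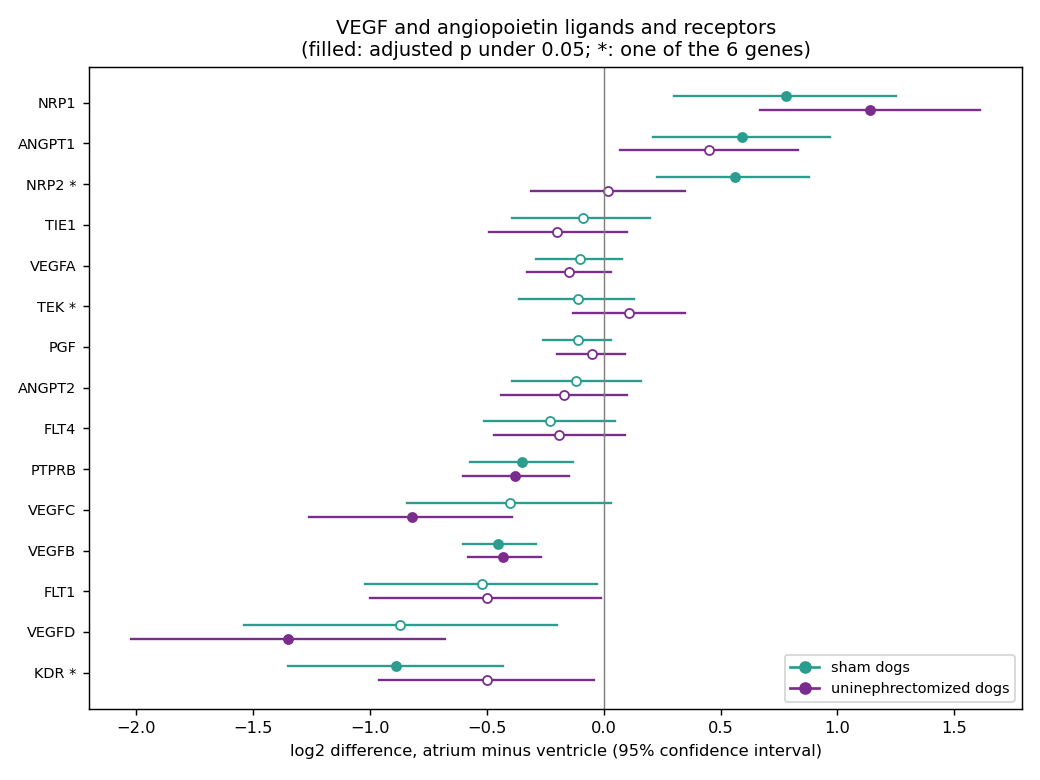
Log2 difference, atrium minus ventricle (horizontal axis), with its 95% confidence interval for 15 genes of the VEGF and angiopoietin systems (vertical axis, ordered by the sham difference; asterisks mark KDR, TEK and NRP2) in sham and uninephrectomized dogs; filled points have an adjusted p under 0.05. KDR lies at the lower end at -0.89 and its coreceptor NRP1 at the upper end at 0.78 in sham dogs.

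Lists tied to vessel type and endothelial function gave the wider setting. Over 13 endothelial and pathway lists 103 genes were tested, with VWF, PECAM1, CDH5, KDR, TEK and NRP2 among them. Of these 103, 14 were called higher and 10 lower in sham atria, 23.3% in all, beside 22.8% of all genes, and 13 higher and 10 lower in uninephrectomized atria, 22.3% beside 29.9%. Of 10 capillary genes, CD36, a fatty acid transporter that cardiomyocytes carry too, was lower in the atrium at -0.99 ± 0.13 and -1.14 ± 0.13, CA4, a surface carbonic anhydrase, was lower in sham atria at -0.99 ± 0.31, and FABP4, a fatty acid binding protein of capillaries and fat cells, was higher in sham atria at 1.75 ± 0.45; beside the last, ADIPOQ, made by fat cells, was higher by 3.83 ± 0.83. All 3 tested venous genes had positive differences in sham dogs, with NRP2 and NR2F2, the transcription factor of venous identity that atrial muscle also makes, called (1.19 ± 0.22 for NR2F2). Of 8 lymphatic genes NRP2 and RELN (1.40 ± 0.35) were called higher and PDPN (-0.61 ± 0.18) lower, while PROX1, LYVE1 and FLT4 were not called. GJA5, the connexin of arterial endothelium and of atrial muscle, was higher in the atrium by 3.26 ± 0.63 in sham dogs. Of 8 endocardial genes NPR3, CDH11 and the dim TMEM108 were called higher in sham atria, NPR3, a natriuretic peptide clearance receptor, by 2.20 ± 0.25. SELE, the endothelial selectin induced by cytokines, was lower in the atrium at -0.92 ± 0.23 and -0.81 ± 0.23. The other 6 of the 7 tested endothelial activation genes had positive differences under both operations. The list medians were 0.42 in sham and 0.53 in uninephrectomized dogs. Of those 6, CCL2 was called, higher in uninephrectomized atria at 0.74 ± 0.18 (adjusted p = 0.00491). Of the Weibel-Palade genes CD63, a membrane protein of that organelle and of lysosomes, was higher at 0.26 ± 0.06 and 0.38 ± 0.06, opposite to VWF.

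The comparison of the operations within a chamber addresses gene expression in the heart after loss of a kidney. None of the 6 genes passed the test in either chamber, and none of the 30047 tested probe sets was called by limma (0 in each chamber), while 2010 (6.69%) in the atrium and 2005 (6.67%) in the ventricle had an unadjusted p under 0.05. Leaving out a single array gave at most 1 call in the atrium and 4 in the ventricle (without sham ventricular array 1), none of them among the 6 genes. Of the 6 genes 2 had an unadjusted p under 0.05 in the atrium, TEK and NRP2, and 0 in the ventricle by their brightest probe sets. The groups of no gene were free of overlap, as for 0.929% of all tested probe sets in the atrium and 0.992% in the ventricle. The median over the 6 genes was 0.05 in the atrium and 0.03 in the ventricle, beside 0.00 over all tested probe sets in each.

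The values of NRP2 in the atrium were the most separated. All 5 uninephrectomized arrays lay at or below 2.96, and 4 of 5 sham arrays lay above it. The difference, uninephrectomized minus sham, was -0.59 ± 0.16 (-0.91 to -0.26; unadjusted p = 0.00138, adjusted p = 0.637; exact permutation p = 0.0159), between -0.69 and -0.43 when each array was left out in turn, and the second NRP2 probe set differed by -0.01 ± 0.06. In the ventricle the NRP2 difference was -0.05 ± 0.16. TEK measured 3.51, 3.47, 3.57, 3.72 and 3.65 in uninephrectomized atria, of which 3 arrays lay above all sham atria, and differed by 0.28 ± 0.12 (0.04 to 0.53; unadjusted p = 0.0249, adjusted p = 0.695; exact p = 0.0238). In the ventricle TEK ranged from 3.19 to 3.68 after uninephrectomy and differed by 0.06 ± 0.12. KDR differed by 0.45 ± 0.22 in the atrium (-0.01 to 0.90; unadjusted p = 0.0567, adjusted p = 0.758), where 3 uninephrectomized arrays lay above the highest sham array and the other 2 lay within the sham range, and by 0.06 ± 0.22 in the ventricle. With the 3′ gap as a covariate the KDR differences were 0.51 (adjusted p = 0.66) in the atrium and 0.27 (adjusted p = 0.999) in the ventricle.

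By their brightest probe sets, the 3 markers differed little between the operations. VWF differed by 0.13 ± 0.08 in the atrium (-0.04 to 0.30) and -0.01 ± 0.08 in the ventricle (-0.17 to 0.16). PECAM1 differed by -0.13 ± 0.09 (-0.31 to 0.06) and 0.10 ± 0.09 (-0.09 to 0.28). CDH5 differed by -0.02 ± 0.09 (-0.22 to 0.17) and 0.01 ± 0.09 (-0.19 to 0.20). By these probe sets the intervals of the 3 markers all lay within -0.31 to 0.30 in both chambers, with CDH5 at dim signals where differences are compressed. Of the other PECAM1 probe sets the dimmest differed by 0.32 ± 0.13 in the ventricle (unadjusted p = 0.0193, adjusted p = 0.688), and the other differences of the 3 dimmer probe sets had adjusted p from 0.761 to 0.987. Relative to PECAM1 on the same array, KDR differed in the atrium by 0.57 (0.10 to 1.05) and TEK by 0.41 (0.13 to 0.69), each with an exact permutation p of 0.0238 and an adjusted p of 0.119 over the 20 comparisons.

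**Figure D5:**
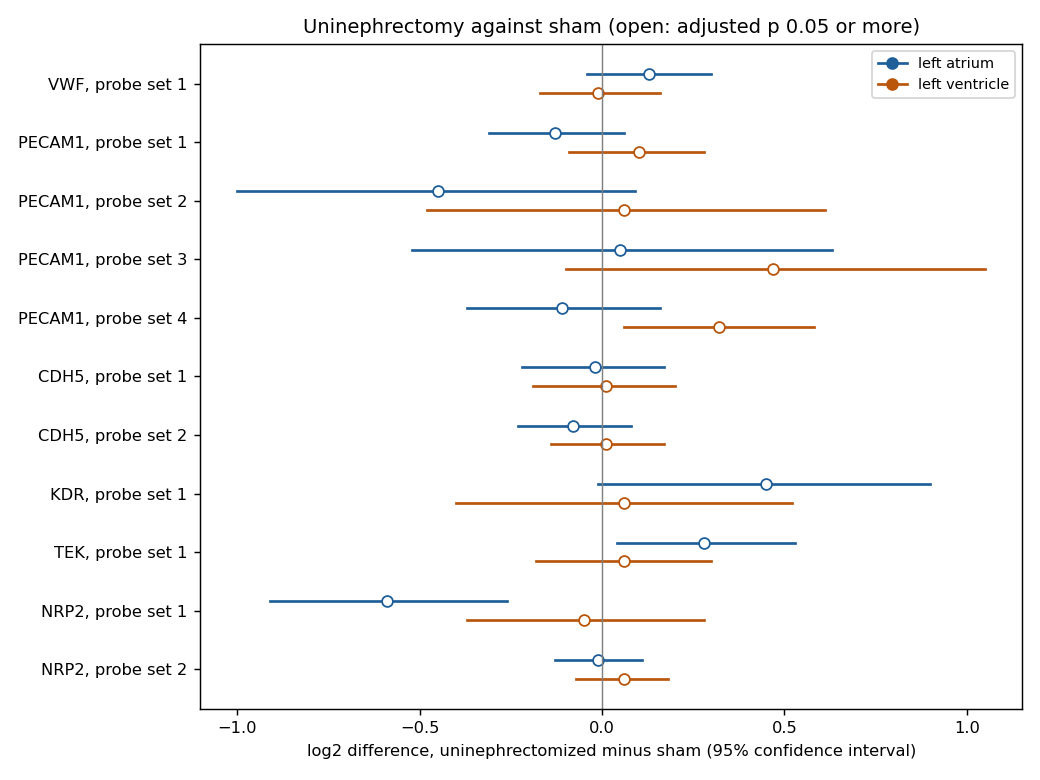
Log2 difference, uninephrectomized minus sham (horizontal axis), with its 95% confidence interval for the 11 tested probe sets (vertical axis, numbered from the brightest) in the left atrium and left ventricle; all points are open because no adjusted p was under 0.05. The atrial differences of TEK and of the brightest NRP2 probe set, at 0.28 and -0.59, have intervals that leave out 0, and the second NRP2 probe set lies at -0.01.

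Whether the effect of uninephrectomy differed between the chambers was tested as the difference of the 2 effects, atrium minus ventricle. By limma 0 of the 30047 probe sets passed, and 893 (2.97%) had an unadjusted p under 0.05. The difference was -0.54 ± 0.22 for NRP2 (unadjusted p = 0.0248), 0.39 ± 0.31 for KDR, 0.22 ± 0.16 for TEK, 0.13 ± 0.11 for VWF, -0.22 ± 0.12 for PECAM1 and -0.03 ± 0.13 for CDH5, each with an adjusted p of 1. Those values are of the brightest probe sets. The 3 dimmer PECAM1 probe sets gave -0.52 ± 0.37, -0.42 ± 0.39 and -0.43 ± 0.18, the last with an unadjusted p of 0.0267, and none was called. The second NRP2 probe set gave -0.07 ± 0.08. Over the 13 endothelial and pathway lists 0 of 103 genes were called for the atrium, the ventricle or the difference of the effects, with 14, 5 and 4 at an unadjusted p under 0.05. Of all tested probe sets 6.69%, 6.67% and 2.97% had such a p. TEK and NRP2 were among the 14, and NRP2 was among the 4. Whether the lists depart from these shares was not tested. The fibroblast list, with 0 called, had positive atrial differences in 10 of 10 genes with a median of 0.38, and the pan-endothelial list a median of -0.02.

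How the 6 genes varied together was examined after subtracting the group mean from each of the 20 arrays, over 15 pairs, with permutation of arrays within groups. Each group was permuted on its own, so these p-values do not allow for the pairing of sham arrays described with the processing. No pair passed the adjustment. PECAM1 and KDR had Pearson r = 0.56 and Spearman rho = 0.43 (permutation p = 0.0307 and 0.0792, adjusted 0.154 and 0.396), and r = 0.39 without the 2 arrays farthest from the median of PECAM1. TEK and NRP2 were opposed, with r = -0.58 and rho = -0.53 (permutation p = 0.0258 and 0.0338, adjusted 0.154 and 0.253), r = -0.71 without the 2 farthest arrays, and r = -0.86 over the 10 atrial and -0.31 over the 10 ventricular arrays. PECAM1 and NRP2 had r = -0.38 and rho = -0.60 (permutation p = 0.0203 and 0.00551, adjusted 0.154 and 0.0826), and r = -0.34 without the 2 farthest. VWF had no r beyond 0.33 in size with any of the other 5 over the 20 arrays, while over the 10 ventricular arrays r was 0.54 with KDR and -0.52 with TEK, and over the 10 atrial arrays -0.43 with CDH5. Of 6 relations with the 3′ gap, PECAM1 had r = 0.56 and rho = 0.35 (permutation p = 0.0279 and 0.175, adjusted 0.167 and 0.525), which fell to r = 0.28 without the 2 farthest arrays. KDR had r = 0.45 and rho = 0.29 (permutation p = 0.103 and 0.283), and r = 0.16 without the 2 farthest arrays. Over the 10 ventricular arrays r with the gap was 0.70 for PECAM1 and 0.66 for KDR, and over the 10 atrial arrays 0.51 and 0.26. The part of the gap in the pairs was not tested.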

How the data were processed

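Total RNA (100 ng per sample, per the labels) from 20 left atrial and left ventricular samples was labelled and hybridised to Affymetrix canine arrays. The deposited log2 values were used as deposited. The authors' background correction, summarization and normalization are not given in the sources used here. No scan files were used, and the number of arrays limits the precision. The table holds 43035 probe sets; without 111 control probe sets and the dimmest 30% (mean under 1.87), 30047 were tested. Symbols came from the supplied platform annotation (29264 probe sets with 1 symbol, 439 with several, 13332 not listed).

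One linear model over the 20 arrays, with 4 group means, 5 contrasts and 16 residual degrees of freedom, was fitted with lmFit and eBayes of limma 3.58.1 (R 4.3.3). The tests are two-sided, and the method was tested on simulated data. Exact permutation tests used all 252 splits of 5 against 5 arrays, and correlations 100000 resamples. Neither used the pairing of sham arrays described below, so their p-values treat paired sham arrays as separate. The genes named were drawn from the 6 genes, from each of 23 lists (222 genes, 191 with a probe set, 158 tested) up to 4 called genes with the smallest p, or the 2 with the smallest p where none was called, and the 3 genes most like each of the 6. Not every list gene so chosen is named in the results. Those left out include SHC1, PIK3R1 and MAP2K1 of the list of KDR signalling genes. VEGFA, FLT1, FLT4, SEMA3C, SEMA3F and other list genes given as not called were added after their values were seen. The 6 genes and the lists were chosen with earlier results of these data known. Alternatives covered the filter, array scaling, variance model, array weights, the 3′ gap, the arrays in the fit, blocks, the probe set per gene and leaving out each array.

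Replicate numbers in the labels are not said to mark a dog. In sham dogs, same-numbered arrays of the chambers had deviations from the group means that correlated at 0.463, 0.226, 0.373, 0.295 and 0.209, all over 0.1, and the pairing of sham arrays was accepted from these data, not from the labels. Those of same-numbered uninephrectomized arrays ran from -0.235 to 0.115, so the numbers do not pair them. Each uninephrectomized atrial array correlated best with a ventricular array of another number (0.167 to 0.536), and no pairing was built from these values.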

Additional observations from a re-analysis of the deposited data

How the results depend on the processing

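Over 13 alternatives and 20 fits that each left out 1 array, VWF under both operations and KDR in sham dogs stayed called between the chambers. Over the alternatives VWF ran from -0.67 to -0.57 in sham and -0.54 to -0.44 in uninephrectomized dogs, and KDR from -0.96 to -0.71 in sham dogs. VWF and KDR have 1 probe set each, so the alternatives on the probe set per gene reused the main values for them and could not change their calls. NRP2 in sham dogs was called in 10 of 13 alternatives, the exceptions being those given above, of which the second probe set reversed it (-0.05). In uninephrectomized dogs the genes called between the chambers numbered 2 with array weights, and from 1 to 2 when each array was left out. In sham dogs 2 genes, VWF and KDR, were called in the 3 alternatives that lost NRP2, and 3 in the other alternatives and with each array left out. Of those 3 alternatives, only the fit of the arrays compared could have changed the calls of VWF and KDR. The count stayed at 0 for the operations and their difference. With the replicate block, random or fixed or for sham arrays only, the chamber count was 3 in sham and 1 in uninephrectomized dogs and the pairing by number changed no call among the 6 genes; for uninephrectomized arrays this does not test a pairing under other numbers. The block moved all calls in sham dogs from 6257 to between 6411 and 8030. Signs turned among differences near 0. CDH5 after uninephrectomy in the ventricle became -0.02 with equal medians, -0.03 with quantile normalization and 0.00 with array weights, where VWF also became 0.00. PECAM1 between sham chambers became 0.00 with equal medians. NRP2 between uninephrectomized chambers became -0.06 with equal medians, 0.00 with quantile normalization, -0.12 by its second probe set and -0.05 by the mean of probe sets. NRP2 after uninephrectomy in the ventricle became 0.06 by the second probe set and 0.00 by the mean, and CDH5 between sham chambers 0.06 by its second. With each array left out, differences that turned sign ran from -0.04 to 0.10 (NRP2, uninephrectomized chambers), -0.06 to 0.03 (CDH5, atrial effect), -0.08 to 0.07, -0.03 to 0.24, -0.13 to 0.02 and -0.03 to 0.04 (CDH5, KDR, NRP2 and VWF, ventricular effect) and -0.10 to 0.05 (CDH5, difference of effects). The cause of these changes was not tested. Signals near the low end limit what CDH5, TEK and NRP2 can show.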

Other observations

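The genes whose array-to-array deviations from the group means were most like those of the 6 genes, by Pearson r over 20 arrays among 11422 other genes, were on none of the 23 marker and pathway lists. For VWF they were CCDC61 (0.82), ZNF713 (0.75) and ABCE1 (0.75), and for PECAM1 CALD1 (0.86), MED13L (0.86) and TCEA1 (0.85). For KDR they were ARPC3 (0.84), FTH1 (0.82) and PLPP1 (0.80), for TEK BCL7C (0.82), ADAM19 (0.77) and DTL (0.76), for CDH5 TRIM58 (0.89), SLC25A4 (0.87) and AMBP (0.86), and for NRP2 SIM1 (0.83), TIMM44 (0.78) and ANK2 (0.78). The highest of so many correlations is high by selection, and arrays share RNA quality and processing, so these values only describe the 20 arrays.

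CA4 and RGCC, capillary genes chosen after their values were seen, had the same sign after uninephrectomy in both chambers without passing the test. CA4 differed by 1.28 ± 0.31 in the atrium (unadjusted p = 0.000619, adjusted p = 0.631) and 0.94 ± 0.31 in the ventricle (unadjusted p = 0.00718, adjusted p = 0.602). RGCC, a cell cycle regulator made in capillary endothelium, differed by 0.53 ± 0.16 (adjusted p = 0.637) and 0.55 ± 0.16 (adjusted p = 0.558). SEMA3C, a ligand of NRP2 chosen in the same way, differed by 0.55 ± 0.18 in the atrium (unadjusted p = 0.00751, adjusted p = 0.663), opposite in sign to NRP2.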
